A study of Mus musculus with 6 samples.

Results

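Keratins, claudins and the proteins of desmosomes are the structural genes of epithelium, and their signals were read in myospheres, floating clusters grown from mouse muscle. The genes were taken by name from the annotation of both chips: every keratin (Krt and a number), every claudin except the endothelial Cldn5, the desmogleins (Dsg) and desmocollins (Dsc), and Epcam, desmoplakin (Dsp) and occludin (Ocln). This gave 72 genes with 105 probe sets, of 18193 genes measured in all. The names did not depend on the signals, but the gene family was chosen with the levels on these arrays already known. Counts above background and levels are therefore given as a description, and the tests are kept to differences between replicates and between chips.

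The cells came from hind leg muscle of male Balb/c mice, were enriched for the Sca1 antigen by sorting and grew for 4 days in neurocult medium with bf6f, LIF, B27 and EGF before passage and RNA isolation at passage 1. The chips MOE430A and MOE430B had 3 arrays each, titled as replicates 1, 2 and 3, and no other cell type or treatment was measured. All 6 arrays carry 1 sample number in the labels, and separate cultures are not mentioned, so the spread between them may be technical. Nor do the labels say that arrays of both chips with the same replicate number held the same RNA. Of the fibroblast markers 7 of 7 were above background, among them Col1a1 and Col1a2, chains of type I collagen. For comparison, 36.1% of all genes measured were. Col1a1, Col1a2, Dcn and Fn1 each also had a probe set that was not above background. That of Col1a1 read 92.6, 417 and 71.3 on MOE430A. The list of muscle cell markers, which opens with the satellite cell factors Pax7 and Myf5, had 0 of 7, although Myod1 and Myog each passed the limit on 2 of 3 arrays, and Des, Acta1 and Ckm each on 1.

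Keratins form the intermediate filaments of epithelial cells by pairing a type I with a type II chain, and which pair a cell makes marks its kind of epithelium. Claudins and occludin span the membrane at tight junctions, where claudins set which ions pass between cells. Desmogleins and desmocollins are the adhesive cadherins of desmosomes, and desmoplakin ties them to the keratin filaments. Epcam is an adhesion protein widely used to mark epithelial cells. In mesenchymal cells these genes are generally low, and factors of the Snail and Zeb families repress several of them through the E-box sequence CAGGTG.

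Promoter windows show how these genes differ in sequence. RefSeq promoters (GRCm38.p6, 250 bases before to 50 after the gene start) were matched for 49 of the 72 genes, in 59 windows, since some genes have several starts. The sequences are written 5′ to 3′ on the strand of the gene, with CAGGTG or its reverse complement CACCTG, and TATAAA between 50 bases before and 10 after the start, in capitals. Krt8 and Krt18 are shown because they encode partner chains of simple epithelium, and Epcam because the chips disagreed on it. Cldn12 is shown as a claudin with a signal well above background, by 1 of its 2 probe sets, and Cldn4 as one without. For Cldn12, which has 3 windows, the one with the most CG steps was taken.
Krt8 (chr15:102004293-102004592, minus strand): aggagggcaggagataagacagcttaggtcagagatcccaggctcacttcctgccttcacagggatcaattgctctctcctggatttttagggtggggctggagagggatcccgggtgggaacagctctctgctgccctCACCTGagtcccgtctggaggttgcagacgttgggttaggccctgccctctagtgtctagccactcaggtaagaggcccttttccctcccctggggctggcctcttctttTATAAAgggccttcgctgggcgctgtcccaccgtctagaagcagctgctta
Krt18 (chr15:102027966-102028265, plus strand): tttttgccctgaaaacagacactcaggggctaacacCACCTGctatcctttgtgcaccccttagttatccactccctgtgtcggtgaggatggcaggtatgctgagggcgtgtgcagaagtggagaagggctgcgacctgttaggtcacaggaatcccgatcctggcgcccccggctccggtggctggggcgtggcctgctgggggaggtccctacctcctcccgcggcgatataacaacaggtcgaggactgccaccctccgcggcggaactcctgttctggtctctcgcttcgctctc
Epcam (chr17:87635729-87636028, plus strand): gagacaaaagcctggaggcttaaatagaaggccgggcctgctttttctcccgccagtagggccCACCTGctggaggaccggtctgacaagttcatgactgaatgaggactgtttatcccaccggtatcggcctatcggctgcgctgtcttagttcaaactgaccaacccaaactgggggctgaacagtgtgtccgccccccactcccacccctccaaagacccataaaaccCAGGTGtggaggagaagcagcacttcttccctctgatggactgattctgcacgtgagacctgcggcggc
Cldn12 (chr5:5514740-5515039, minus strand): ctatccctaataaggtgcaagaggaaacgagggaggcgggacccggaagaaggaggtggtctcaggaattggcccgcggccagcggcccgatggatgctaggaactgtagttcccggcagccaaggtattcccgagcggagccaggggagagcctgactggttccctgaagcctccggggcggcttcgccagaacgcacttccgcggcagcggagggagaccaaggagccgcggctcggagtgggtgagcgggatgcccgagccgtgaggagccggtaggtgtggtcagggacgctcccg
Cldn4 (chr5:134946885-134947184, minus strand): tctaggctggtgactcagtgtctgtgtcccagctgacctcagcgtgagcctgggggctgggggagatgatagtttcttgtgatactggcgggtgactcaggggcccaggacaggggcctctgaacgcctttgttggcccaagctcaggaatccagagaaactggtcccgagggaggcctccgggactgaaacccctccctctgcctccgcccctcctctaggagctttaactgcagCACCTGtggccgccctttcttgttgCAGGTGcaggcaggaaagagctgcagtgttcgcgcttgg

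Krt8 and Krt18 each held 1 E-box, Epcam and Cldn4 held 2, and this Cldn12 window held 0. It had 26 CG steps, for which it was picked, and the other Cldn12 windows had 23 and 10. CG steps numbered 6 in Krt8, 17 in Krt18, 11 in Epcam and 9 in Cldn4, with a median of 7 over windows of all genes. Over all 59 windows, 21 (35.6%) held CAGGTG or CACCTG, against 20.2% of 32851 windows of all genes. TATAAA near the start was found in 14 of 32 keratin windows (43.8%) and in 1 of 27 windows of the other members (3.70%), against 2.82% of all. Windows of 1 gene can overlap, as the 3 of Cldn12 do, so they are not independent. A match describes the letters only.

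The deposited values are MAS5 signals, a linear intensity per probe set. For each array the 95th percentile of signals from genes of other tissues served as background limit. It averaged 808 on MOE430A, from 783 to 821, and 2942 on MOE430B, from 2578 to 3294. To be called above the limit a probe set had to pass it on each of the 3 arrays of its chip, and a gene needed 1 such probe set. A signal under the limit does not show that a gene is silent, and in a bulk sample fewer cells of a type cannot be told apart from less RNA per cell. Probe sets differ in affinity, so signals are compared with the limit of their array and not with one another.

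Of the 72 genes 7 were above the limit, or 9.72%, where 36.1% of all genes were. They were the claudins Cldn12 and Cldn15, Epcam, and the keratins Krt8, Krt32, Krt42 and Krt81. No desmosomal gene and neither probe set of occludin was among them. The low share was seen at each number of probe sets per gene: 3 of 51 genes with 1 probe set (22.0% of all such genes), 3 of 14 with 2 (42.2%) and 1 of 7 with 3 or more (59.1%). By chip, 4 of 60 genes were above on MOE430A, against 42.7% of all genes there, and 4 of 83 probe sets, against 35.6%. On MOE430B it was 3 of 19, or 15.8%, near the 17.9% of all genes on that chip, and 3 of 22 probe sets, near the 13.4% of all. Probe sets whose name ends in _a_at, _s_at or _x_at are designed to match several transcripts of a gene or of several genes. Such sets gave 4 of the 7 genes. On MOE430A 1 of 25 such member sets was above, against 44.3% of all such sets, but on MOE430B it was 3 of 6, against 25.3%. Of the other member sets 3 of 58 were above on MOE430A, against 31.7%, and 0 of 16 on MOE430B, against 11.8%.

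**Figure D1:**
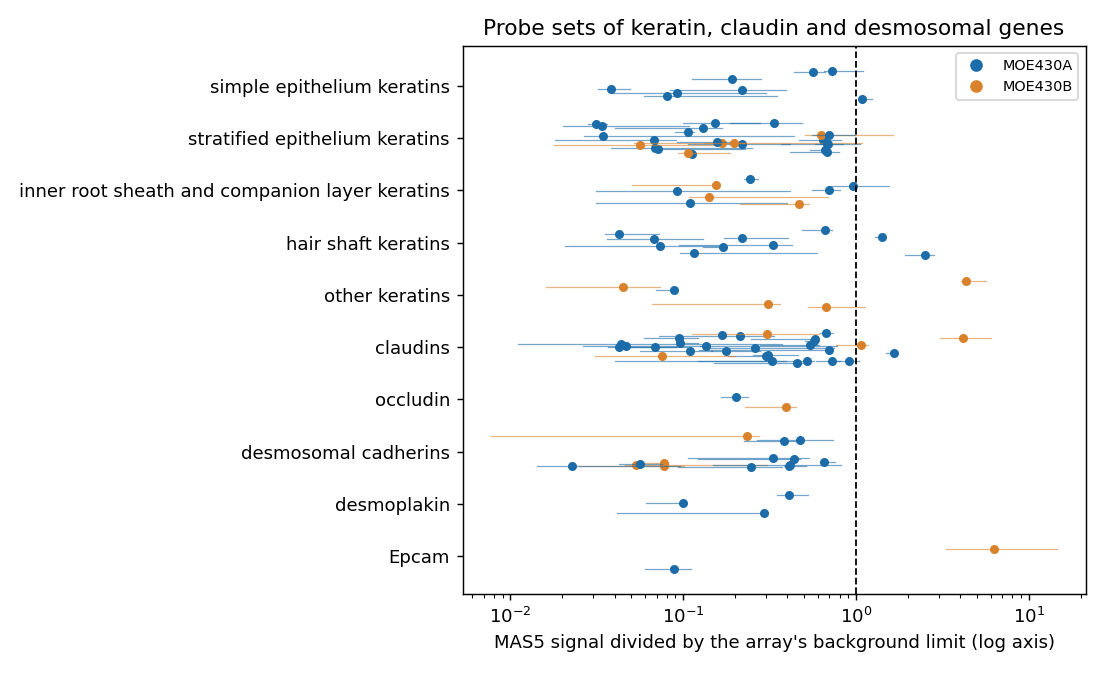
MAS5 signal divided by the background limit of its array (log axis) for all 105 probe sets, grouped by gene class, with the median of 3 arrays as a point, the lowest and highest array as a line, and the limit as the dashed line. Blue is MOE430A and orange MOE430B. Most points lie left of the limit, and the 7 probe sets wholly to its right belong to Cldn12, Cldn15, Epcam, Krt8, Krt32, Krt42 and Krt81.

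The members as a set read close to the reference genes that define background. On MOE430A the median member probe set stood at 0.204 of the limit (83 probe sets), the median reference probe set at 0.196 (152) and the median of all at 0.701. On MOE430B these were 0.206 (22 probe sets), 0.209 (42) and 0.309. Of the 105 probe sets, 90 exceeded the limit on 0 arrays, 8 on 1 or 2 arrays and 7 on all 3. Of the reference probe sets themselves, 4 of 152 on MOE430A and 2 of 42 on MOE430B were above on all 3 arrays. The members' signals were ordered less alike between replicates than those of all probe sets. On MOE430A the rank correlation over the 83 member probe sets was 0.667 to 0.728 between pairs of replicates, over the reference probe sets 0.681 to 0.728, and over all 0.928 to 0.934. For MOE430B the gap to all probe sets was smaller, with members at 0.627 to 0.695, reference at 0.676 to 0.741 and all at 0.784 to 0.808. These are correlations over probe sets of the same arrays and span different ranges of signal.

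Among members with more than 1 probe set, 4 of 21 genes had probe sets that differed in call, Cldn12, Epcam, Krt8 and Krt42, where 41.8% of all such genes did. Among keratins, 4 of 44 genes were above the limit. Keratins of simple epithelium, the single-layered lining of glands and gut, had 1 of 6 above, Krt8. Its probe set 1420647_a_at read 883, 806 and 1013 in replicates 1, 2 and 3, which is 1.08, 1.03 and 1.23 times the limit. The other Krt8 probe sets did not follow: 1423691_x_at read 31.2, 25.2 and 40.3, and 1435989_x_at read 75.2, 237 and 31.6. So 1 of 3 probe sets placed Krt8 just above background and the other 2 far below it. Krt18, the partner of Krt8, read 179.6, 65.9 and 321, at most 0.391 of the limit. Krt19, a type I keratin of ducts, read 230.1, 87.8 and 157, also below it on every array. Krt23 came nearest among the rest, at 532, 568 and 904, and passed the limit in replicate 3 alone.

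Keratins of stratified epithelium, such as epidermis, had 0 of 17 genes above. Krt5, the type II keratin of basal cells, read 92.3, 88.3 and 93.0, so its arrays lay together at 0.113 of the limit. Krt14, its type I partner, was read by 3 probe sets. The highest of them, 1455573_at, gave 574, 424 and 545, between 0.541 and 0.701 of the limit, and the other 2 stayed at or under 0.167 of it. No array put either partner above background. Elsewhere in this class Krt4, Krt77 and Krt78 each passed the limit on 1 array of 3.

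Keratins of hair follicles had 2 genes above the limit. Both belong to the hair shaft, whose keratins had 2 of 10 above, while those of the inner root sheath and companion layer had 0 of 8. Krt32, a type I hair keratin, read 1048, 1110.0 and 1194, or 1.28 to 1.45 times the limit. Krt81, a type II hair keratin, read 2292, 1501 and 2053, or 1.92 to 2.80 times the limit. Each has a single probe set. Krt81 is a close copy of Krt83 and Krt86, whose own probe sets read at most 0.171 and 0.594 of the limit. Whether the Krt81 probe set also reads these copies was not tested. Krt75, of the companion layer, exceeded the limit in replicate 1 alone, at 1266, with 560 and 787 in replicates 2 and 3.

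Krt42, a type I keratin, had a probe set of shared sequence above the limit, 1439765_x_at, at 14271, 11847.5 and 14492 on MOE430B, 4.01 to 5.62 times the limit. Its other probe set, 1430208_at on the same chip, read 2188, 1556 and 2886 and passed the limit in replicate 3 alone. Replicate 3 was thus the highest and replicate 2 the lowest by both. Probe sets ending in _x_at hold probes that can match other transcripts, and whether this one reads other genes was not tested. In map order, 2 of 22 measured keratin genes on chromosome 11, which holds type I genes, were above the limit, Krt32 and Krt42. On chromosome 15, with the type II genes and Krt18, it was also 2 of 22, Krt81 and Krt8. The measured keratins next to each of these 4 genes were below the limit.

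**Figure D2:**
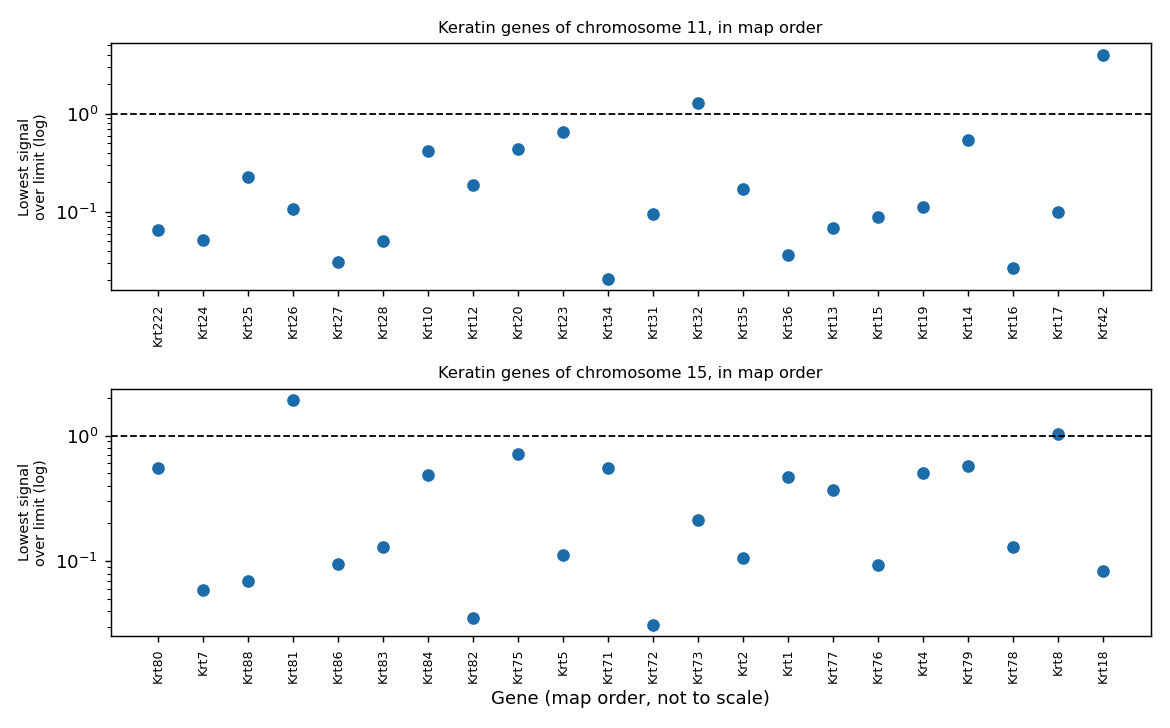
For each measured keratin gene the lowest of 3 arrays, as signal over limit (log axis) of its probe set nearest to or above the limit, in map order along chromosomes 11 and 15. The dashed line is the limit, and Krt32, Krt42, Krt81 and Krt8 stand above it, each with neighbours below.

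Claudins had 2 of 19 genes above the limit. Cldn12, a claudin without the usual scaffold-binding end, read 13561.5, 9036.5 and 15456 on MOE430B by probe set 1433781_a_at, 3.06 to 5.99 times the limit. The second Cldn12 probe set, 1433782_at, read 999, 329 and 1572, at most 0.610 of the limit, with replicate 2 lowest and replicate 3 highest as in the first. Cldn15, which forms cation pores in gut epithelium, read 1374, 1162 and 1356 by its single probe set on MOE430A, or 1.48 to 1.68 times the limit. For comparison, Cldn5, the endothelial claudin kept out of the family here, read 1487, 991 and 1413 on MOE430A, also above the limit on all arrays. The endothelial markers had 3 of 6 above, where 36.1% of all genes were, with Pecam1 below on every array and Cdh5 above on 2 of 3. Their part in the claudin signals was not tested.

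The barrier-forming claudins of epithelium were below the limit. Cldn4 read 659, 567 and 482, up to 0.805 of the limit. Cldn7 gave 376, 197.1 and 252, up to 0.459. Cldn1 had 4 probe sets, of which the highest, 1450014_at, gave 203, 454 and 474, and Cldn3 had 4, of which the highest, 1434651_a_at, gave 228, 420.5 and 502. On no array did any of these probe sets reach the limit. Cldn11, the claudin of myelin and Sertoli cells, read 306, 8.64 and 36.0, a 35.5-fold spread at levels of at most 0.374 of the limit. Closest to the limit without passing were Cldn22, at 2512, 3453 and 2740 on MOE430B and above it in replicates 2 and 3, and Cldn2, at 853, 541 and 745 and above it in replicate 1 alone. Cldn10, at 548, 485 and 601, stayed below on every array.

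Desmosomal genes had 0 of 7 above the limit, counting 6 cadherins and desmoplakin, in 17 probe sets. Desmoplakin, the plaque protein needed by every desmosome, read 428, 272 and 335 by its highest probe set, 1435493_at, or 0.348 to 0.523 of the limit. Dsg2, the desmoglein of simple epithelium and heart, had 6 probe sets. The highest, 1460380_at, read 506, 589 and 534, or 0.618 to 0.751 of the limit, with little spread between arrays. Dsc2, its desmocollin counterpart, read 388, 573 and 218 by its higher probe set. All 3 genes stayed under the limit on every array by every probe set. Occludin read 165.9, 129.4 and 194 on MOE430A and 1297, 1327 and 587 on MOE430B, at most 0.236 and 0.450 of the limits.

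**Figure D3:**
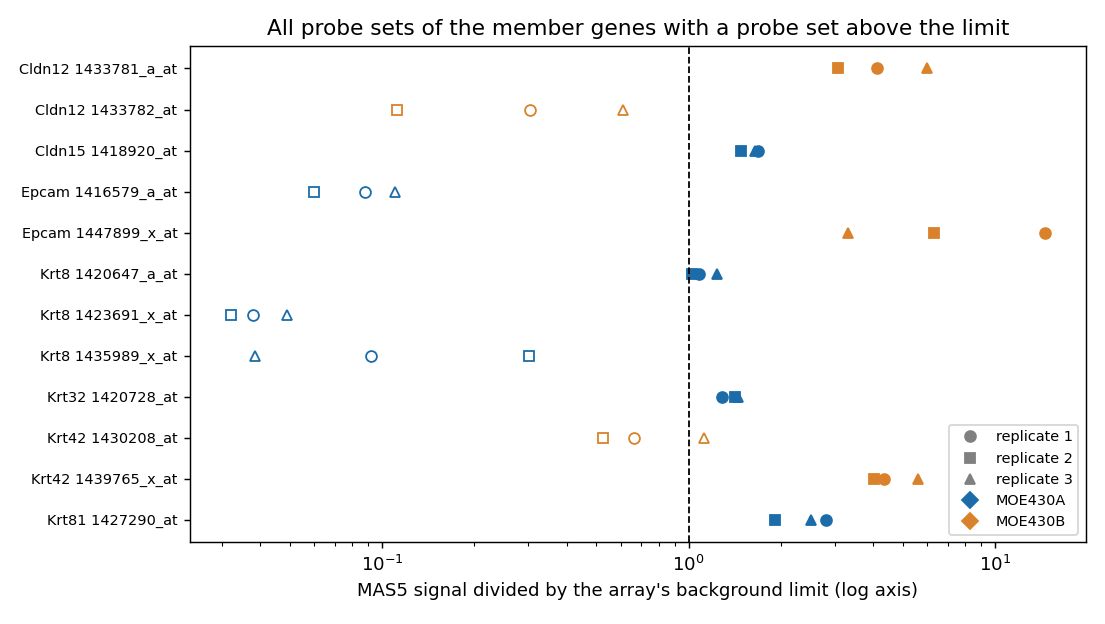
Signal over limit (log axis) of every probe set of the 7 genes above the limit, 1 marker per replicate, filled where the probe set passed on all 3 arrays. Epcam, Cldn12, Krt8 and Krt42 each also have a probe set with open markers, at or left of the dashed limit but for replicate 3 of Krt42, while Cldn15, Krt32 and Krt81 have 1 probe set each.

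The chips could be compared for 7 genes with probe sets on both: Cldn9, Dsc1, Dsc3, Epcam, Krt4, Krt13 and Ocln. For 6 of the 7 both chips placed the gene below the limit, and for 0 of the 7 both placed it above. Of 3807 genes of any kind on both chips, 11.7% were above on both, 46.7% on neither, 32.7% on MOE430A only and 9.01% on MOE430B only, so that 58.3% had the same call. The chips carry different probe sets for these genes, and none of the 100 probe sets present on both chips belongs to the family. On those 100, the median log2 difference was 1.86 in favour of MOE430B, and 99 (99%) differed (limma, adjusted p under 0.05), all of them higher on MOE430B.

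Epcam was the 1 gene on which the chips disagreed. On MOE430A its probe set 1416579_a_at read 71.9, 46.9 and 90.4, at most 0.110 of the limit. On MOE430B the probe set of shared sequence 1447899_x_at read 47832, 18601.5 and 8560.4, or 14.5, 6.30 and 3.32 times the limit. Whether this probe set also reads other genes was not tested, so its signal cannot be assigned to Epcam alone. Replicate 1 was 5.59-fold above replicate 3, and 2 of 1962 probe sets above the limit of MOE430B, Epcam included, spread as widely (0.102%). On MOE430A the order was another, with replicate 3 highest and replicate 2 lowest. The MOE430B array of replicate 1 came from another chip lot than those of replicates 2 and 3, whose Epcam signals were both above the limit. The part of the lot was not tested.

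For the other 6 genes the calls matched and the order of the replicates often did not. Krt4, a keratin of the oesophagus lining, read 169.1, 71.7 and 129.2 on MOE430A and 1663, 1838 and 4221 on MOE430B, where replicate 3 alone exceeded the limit. Krt13, its type I partner, read 55.5, 55.8 and 187 by the higher MOE430A probe set, and 59.0, 165.2 and 444 on MOE430B, with replicate 3 highest on both. Dsc3, a desmocollin of basal epidermis, read 671, 116 and 342 on MOE430A and 332, 73.2 and 200.4 on MOE430B, with replicate 1 highest and replicate 2 lowest on both. Over all 7 genes the chips shared the highest replicate for 2 and the lowest for 2.

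**Figure D4:**
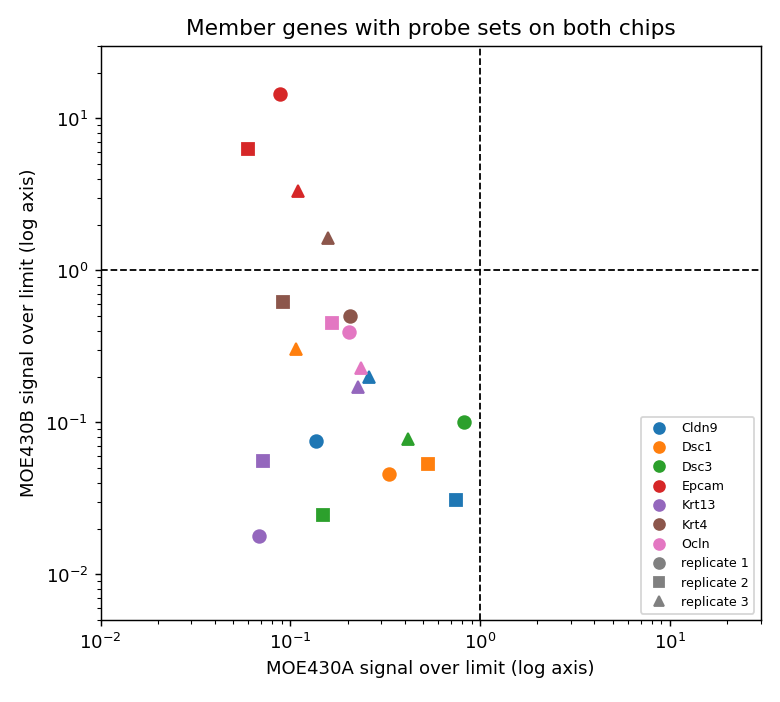
Signal over limit on MOE430A (x axis, log) and MOE430B (y axis, log) for the 7 genes on both chips, by the probe set nearest the limit on each chip, with a colour per gene and a marker per replicate. All points lie left of the vertical limit, and Epcam in all 3 replicates and Krt4 in replicate 3 lie above the horizontal one.

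Differences between replicates were tested with limma, taking arrays with the same number as 1 replicate, over the genes that had, on both chips, a probe set with a mean signal over the mean limit. No member was among these 605 genes, of which 6 (0.992%) differed (moderated F-test of limma, adjusted p under 0.05). Without that filter all 3807 genes on both chips entered, including the 7 members, and 0 (0%) passed (limma, 92 at an unadjusted p under 0.05). Among members Dsc3 had the smallest p, 0.0349, with an adjusted p of 0.942 in limma, and its replicates spanned 2.53 on MOE430A and 2.18 on MOE430B on the log2 scale. Epcam spanned 0.95 and 2.48 and had an adjusted p of 0.942. Since same-numbered arrays may not share an RNA, these p-values do not show that the replicates were alike.

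Other genes of epithelium and its junctions, from 6 lists, were above the limit for 12 of 58 measured, where 36.1% of all genes were. The proteins that hold junctions together on the inside were in part above the limit. Tjp1, the main scaffold of tight junctions, read 3052, 2608 and 3617. Cgnl1, which links junctions to actin, read 3605, 3661 and 3721 by its highest probe set. The other Cgnl1 probe sets, on both chips, were below the limit on every array. Jam2 and Jam3, immunoglobulin-type adhesion proteins also made outside epithelium, were above as well, by part of their probe sets. Tjp3, Marveld2 and the other members were not, for 4 of 12 in all, near the share of all genes. Among those not above, F11r and Cxadr each passed the limit on 1 array of 3 by a single probe set. In the list of desmosome plaque and other junction proteins, Pkp4 and periplakin (Ppl) were above, 2 of 9. Plakoglobin (Jup), at 285, 218 and 162, and Pkp1 were not, and Cdsn passed the limit on 1 array of 3.

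Most genes that define epithelium were below the limit, but so were most genes of any kind, as 36.1% of all were above. Surface and adherens genes had 0 of 11 above, with E-cadherin (Cdh1) at 217, 104.1 and 131.6 and P-cadherin (Cdh3) at 236, 103.1 and 141.9 on MOE430A. Spint1, at 919, 602 and 888, passed the limit on 2 of 3 arrays. So did Spint2 by its higher probe set, at 676, 1033 and 981. Epithelial transcription factors had 2 of 10, Elf3 at 1242, 1148 and 1083 and Klf5, while Grhl1, Grhl2 and Trp63 were below. Both MOE430A probe sets of Klf5 were above, the higher at 1197, 1796 and 3104. Its MOE430B probe set read 1074, 710 and 824, below the limit on every array. Among proteins of cornified epidermis loricrin (Lor) alone was above, 1 of 9, by 1 of 3 probe sets, at 2774, 1191 and 1796. Its other sets read 516, 664 and 571, and 20.6, 13.3 and 14.5, and Ivl and Flg were below. Tgm3 passed the limit on 2 of 3 arrays by its MOE430B probe set, at 2395, 3288 and 4006. Lce1a1 passed it on 1 array. Hemidesmosome genes had 3 of 7, namely Itga6, Dst and Plec, which non-epithelial cells also make. For Dst a single probe set was above, and its other probe sets were below the limit on every array. Itgb4, the partner that is particular to hemidesmosomes, read 72.1, 48.9 and 41.0.

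Intermediate filaments other than keratins were above the limit for 5 of 15 genes, near the 36.1% of all genes. Vimentin (Vim), the filament of mesenchymal cells, read 17661, 16294 and 26105 by its highest probe set, at least 20.8 times the limit on every array. The others were Nes, Nefl, Lmna and Lmnb1, whereas Gfap was below on every array. Des passed the limit on 1 array of 3, and Nefm and Prph each on 2. Of the 6 factors that repress epithelial genes, 5 were above: Snai2, Zeb1, Zeb2, Twist1 and Twist2. Twist2 read 16400.0, 14623 and 14700, and Zeb1 7388, 4596 and 5816 on MOE430A. Snai1, at 844, 680 and 1017, passed the limit on 2 of 3 arrays.

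Markers of other cell types in which some members are made were read beside them. For comparison, 36.1% of all genes were above the limit. Mesothelium, a lining that makes Krt8, Krt18 and Krt19, had 0 of 6 markers above, with Msln at 37.0, 54.9 and 37.3 and the higher Upk3b probe set at 284, 196.2 and 67.0. Upk1b passed the limit on 1 array of 3 by its highest probe set, at 1945, 1519 and 4307 on MOE430B. Myelin glia had 3 of 5 above, Pmp22 and, by 1 of 3 probe sets each, Sox10 and Cnp, of which Pmp22 and Cnp are also made by fibroblasts, with Mbp above on 1 array of 3 at most and Mag below on all. The list for perineurium and tendon had 1 of 5, Slc2a1, with Itgb4 below and Scx above on 1 array of 3 by its MOE430B probe set. Haematopoietic markers had 3 of 7, Csf1r, Adgre1 and Cd14, with Ptprc not above and Cd68 and Tyrobp each above on 2 of 3 arrays. The part of these cells in the signals of the 7 genes was not tested.

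**Figure D5:**
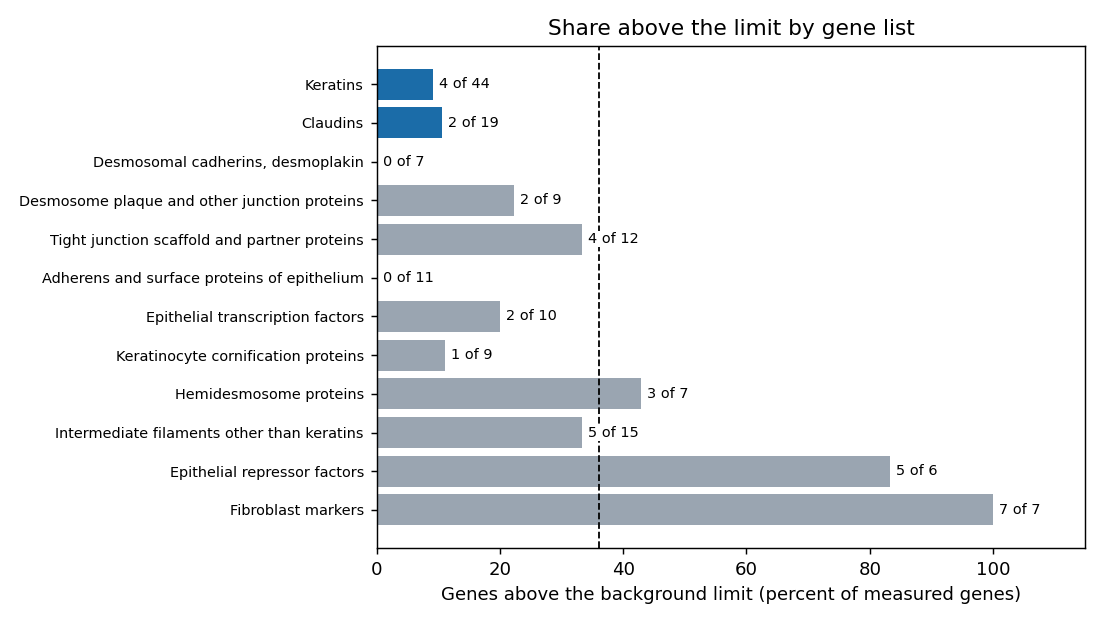
Percent of measured genes above the background limit (bars start at 0), with the family in blue and other lists in grey, the counts beside the bars, and the share of all genes, 36.1%, as the dashed line. Keratins (4 of 44), claudins (2 of 19) and desmosomal genes (0 of 7) lie left of that line, and epithelial repressor factors (5 of 6) and fibroblast markers (7 of 7) right of it.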

How the data were processed

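Total RNA was read on Affymetrix chips MOE430A and MOE430B, 3 arrays each. MAS5 is named in the submitters' processing notes, without a version in the sources used here, and the deposited values have the range of its linear signal intensity. All arrays had a trimmed mean (2% off each end) of 1500.2 to 1500.8, so each array was scaled by itself and the chips differ in scale. Only the chip lot was read from the deposited experiment records, which hold settings of other kinds and no signal. Having 3 arrays per chip limits the precision.

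Probe sets with 1 annotated gene symbol were used, 20393 of 22690 on MOE430A and 14674 of 22575 on MOE430B, controls left out later. A further 691 and 245 had several symbols and 1606 and 7656 had none. Entrez numbers were looked up in RefSeq (GRCm38.p6) for current symbols, 20364 and 14499 were found, and no member changed its name. The reference genes for the limit, such as odorant receptors, defensins and sperm proteins, had 152 probe sets on MOE430A and 42 on MOE430B, of which 31 and 12 were keratin-associated proteins. The 3' over 5' signal ratio of the Gapdh control sets averaged 13.8 on MOE430A and 15.4 on MOE430B, which bears on probe sets far from the 3' end, and its effect on the calls was not tested.

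Named genes are all members above the limit, 15 markers of epithelium set by name, the 5 other members nearest below it, and of each further list the genes above the limit and the first 2. Members of both chips and a few others were named after their values were seen. The members, lists, keratin classes and promoter motifs were chosen with earlier results of these data known. Tests used limma 3.58.1 in R 4.3.3 and were tested on simulated data. All else was computed in Python 3.11.15 with pandas 2.3.3 and numpy 2.4.6, and drawn with matplotlib 3.10.9. Alternatives covered the limit, its reference genes, shared-sequence probe sets, symbols, chips, normalization, the filter, the variance model and each replicate.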

Additional observations from a re-analysis of the deposited data

How the results depend on the processing

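The share of member genes above the limit stayed below that of all genes under each alternative tried, although with MOE430B by itself, which was not among them, the shares were close (15.8% and 17.9%). With the 99th percentile as limit it was 5 of 72 (27.0% of all genes), losing Krt8 and Krt32, and with the array median 10 of 72 (53.8%), gaining Cldn22, Krt4 and Krt75. Without probe sets ending in _x_at, _s_at or _a_at it was 3 of 63 (30.4%), since Cldn12, Epcam, Krt8 and Krt42 rest on such sets, although _a_at sets match transcripts of 1 gene. With MOE430A alone it was 4 of 60. Leaving out a replicate gave 7 to 8 genes for the family and 12 to 14 of the other epithelial genes, with 37.5% to 38.6% of all genes above. The count for those other genes was 20 of 58 with the array median as limit, where 53.8% of all genes were above. The number of members above on both chips was 0 in every setting that keeps both chips.

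Genes differing between replicates numbered 0 with quantile normalization (limma, 35 at an unadjusted p under 0.05), 0 without the filter (92), 0 with the ordinary F-test (24), and 0 to 6 when a replicate was left out, 0 without replicate 2 (39). Shared probe sets differing between chips numbered 99 with the replicate number as a block, 97 to 98 with a replicate left out, and 0 once each array was centred on them (limma, 7 unadjusted). Same-numbered arrays of the chips correlated at -0.01, 0.44 and 0.10 in their deviations over 100 probe sets, which leaves it unknown whether they share an RNA, and the test between replicates, which takes them as 1 replicate, rests on that assumption. The replicate block left the count of 99 as it was. Only the arrays of replicate 2 correlated best with their own number. Replicate 1 of MOE430A correlated at 0.33 with replicate 3 of MOE430B, and replicate 3 of MOE430A at 0.22 with replicate 1 of MOE430B.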

Other observations

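A single probe set naming a member together with another gene was left out of the counts. It is annotated to both Krt17 and Krt14, keratins of stratified epithelium, and read 130.2, 343 and 27.9 on MOE430A in replicates 1, 2 and 3, at most 0.438 of the limit.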
